A study of Mus musculus with 7 samples.

Results

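Muscle at day 2 after cardiotoxin (CTX) injection was described here through the m6A peaks listed for METTL3 cKO and control (CTL) mice, grouped by the function of the genes that carry them. All 5412 peaks of the muscle table were taken, of 10845 peaks listed for the whole series, and collapsed by Ensembl identifier to 3983 genes. CTX was injected into the tibialis anterior muscle of tamoxifen-treated mice on the C57BL/6 background. The cKO mice were Pax7CreERT2; METTL3 flox/flox, and the CTL mice were Pax7CreERT2; METTL3 wt/wt, so both carried the Cre driver and both received tamoxifen and CTX. The age of these mice and the number pooled per library are not given in the sources used here. Each genotype had 1 immunoprecipitated (IP) library, made with an antibody against m6A, and 1 input library, both from polyA RNA. Pax7CreERT2 deletes the gene in satellite cells, the stem cells of muscle, whereas the labels name the source as muscle, so fibres, immune cells, fibroblasts and vessels that keep METTL3 could also be in the sample.

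The methyl group of m6A is placed on adenosines of mRNA by a complex in which METTL3 is the catalytic subunit, mostly within short motifs built around GGAC. It is known to gather near stop codons, in 3′UTRs and in long internal exons, and proteins that bind it can alter splicing, decay and translation of the transcript. In injured muscle, satellite cells enter the cell cycle while neutrophils and macrophages clear the debris, and damaged fibres are rebuilt later.

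The table gives 1 set of values per peak and none per library, so no value can be shown for a genotype alone and no test between genotypes was possible. Its peaks are those that passed the authors' differential test, and a gene without a listed peak may be unmethylated, methylated alike in both genotypes, or not expressed. The depth of the libraries is unknown. Each peak has a class, 1 or more exon blocks whose summed sizes give its length, the number of sites listed in it, a fold enrichment of IP over input and a log2 fold between the genotypes. The numerator of the log2 fold is not stated, so its sign is given as deposited. No peak is listed for Mettl3, and the knockout was therefore not checked. Over all peaks, the median length was 360 bp (quartiles 211 and 690), and 4715 peaks lay in a single exon block. The class was 3′UTR for 2598 peaks, CDS for 1726, exon for 806 and 5′UTR for 278, with 2 peaks each at start and stop codons. How the class was set for a peak that covers several features is not stated.

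Markers of 8 cell types, with 8 genes each, were looked up to see which cells the listed transcripts could come from. Listed peaks were found for 3 satellite cell markers (Pax7, Itga7 and Sdc4), 3 macrophage markers (Mrc1, Itgam and Ptprc), 3 neutrophil markers (Csf3r, Cxcr2 and Mmp9) and 3 markers of fibro-adipogenic progenitors (Pdgfra, Col1a1 and Cd34). A further 2 Schwann cell markers, 1 endothelial marker (Cdh5) and 1 myofibre marker (Ttn) had a peak, and none of the 8 lymphocyte markers did. Most markers of every list had no peak, and 16.9% of all protein-coding genes had one. Counts this small from 8 genes therefore do not tell the cell types apart. The labels name the cell type as muscle stem cell, whereas the markers with a peak come from the lists of several cell types. Without expression values, the share of RNA from each cell type was not measured.

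The listed sites mark GGAC on the strand of the gene. No genome was used here, so this was checked where sites fall in the 300-base windows around RefSeq transcript starts on GRCm38. Of 163 such sites, 146 (89.6%) had GGAC at the listed position. GGAC on either strand is found in 87.7% of the 32851 windows, so its presence somewhere in a window says little, and the check concerns the listed position. The base after GGAC was G in 28.1% of the 146 sites, A in 24.7%, C in 24.7% and T in 22.6%. Over all GGAC motifs in these windows, on both strands, G followed in 15.7%, A in 29.6%, C in 27.8% and T in 26.9%. These motifs include sequence outside transcripts, so the sets are unlike, and a preference for a base was not tested. The following 24-base stretches are printed 5′ to 3′ on the strand of the gene, with GGAC in capitals, to show sites from strong, long peaks of transcription factors, regulators and a ubiquitin ligase (the first 7) beside sites from weak, short peaks (the last 4). They were chosen among the few listed sites that lie in a window of their own gene.
Jun, chr4:95052189-95052212, minus strand: ggctggataaGGACtcagagttgc
Junb, chr8:84978703-84978726, minus strand: cgagcactggGGACtttgagggtg
Fosl2, chr5:32136412-32136435, plus strand: cgcaggggagGGACcgagggacgc
Zfp513, chr5:31202109-31202132, minus strand: ctaagagcaaGGACcgacggcagg
Zscan29, chr2:121171105-121171128, minus strand: cttgagagcgGGACtgaggctagc
Rnf26, chr9:44113119-44113142, minus strand: ttccaagccgGGACgccgttccct
Ep300, chr15:81586213-81586236, plus strand: agaaggaggaGGACagcgccgagg
Hk2, chr6:82774409-82774432, minus strand: tggagtctcaGGACaccacaggct
Med25, chr7:44892395-44892418, minus strand: gttcgtcccgGGACggcgacggcg
Nid1, chr13:13437605-13437628, plus strand: aggtgaggagGGACtgcggagggg
Pygo2, chr3:89430573-89430596, plus strand: tgcggcccgaGGACgcctccatcc
The peak that holds the Jun site was 2563 bp long with 16 sites and a fold enrichment of 184. The peak of Junb was 1809 bp long with 15 sites and a fold enrichment of 91.4, and that of Rnf26, a RING-type ubiquitin ligase, was 2656 bp long with 19 sites and a fold enrichment of 539. The peaks around the sites of Hk2, Med25, Nid1 and Pygo2 were 211 to 301 bp long, with 2 to 6 sites and fold enrichments of 4.9 to 12.6. Only sites with GGAC at the listed position were printed, and the sets were chosen by the length and strength of their peaks, so neither feature is a result.

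The annotation holds 21900 protein-coding genes, of which 3705 (16.9%) had a listed peak, and they carried 5086 peaks. The other 326 peaks belong to other gene types or to names that were not matched. Functional groups were described with 34 gene lists, which hold 1054 of the 3705 genes and 1572 of their peaks, with 26 of these genes in 2 lists. The share of a list with a listed peak was above 16.9% in 28 of 34 lists, and its 95% Wilson interval lay above that value in 21 lists and below it in 3. These intervals cover counting error only and treat genes, and in what follows peaks, as independent, although peaks of 1 gene share a transcript. The lists and their members were chosen with earlier results of these data known, so the tally of lists is not a test. Many genes of the annotation are not expressed in muscle, and expression was not available, so the share of a list also counts how many of its genes are expressed.

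The Hippo, insulin and integrin adhesion lists had the highest shares. Other signalling lists were lower, from 40.8% for innate immune signalling and macrophages to 16.7% for receptor tyrosine kinases with growth factors. In the Hippo pathway, which restrains growth through the kinases Mst and Lats, 20 of 37 genes had a peak (54.1%, interval 38.4 to 69.0). They included the atypical cadherins Fat1, Fat4, Dchs1 and Dchs2 at the cell surface, the kinases Lats1, Stk3 and Taok1 to Taok3, the adaptors Sav1, Mob1a and Mob1b, and the transcription factor Tead1. In the insulin, PI3K, mTOR and FoxO list, 49 of 91 genes had a peak (53.8%, interval 43.7 to 63.7), from the receptors Insr and Igf1r through Irs1, Pik3ca, Pdpk1 and Akt1 to Mtor, Rptor, Rictor, Mlst8 and the brake protein Tsc1. Integrin adhesion followed with 23 of 52 genes (44.2%), among them 6 integrin alpha chains, the beta chain Itgb5, and Ilk, Vcl, Pxn and Fermt2, which couple integrins to actin.

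Regulators of transcription and RNA were also well covered. Listed peaks were found for 14 of 32 myogenic and satellite cell regulators (43.8%), 79 of 188 chromatin modifiers and remodellers (42.0%), 94 of 235 splicing factors and RNA-binding proteins (40.0%) and 33 of 90 nuclear receptors and coregulators (36.7%). Zinc finger proteins, many of which are DNA-binding repressors, had a lower share at 119 of 467 (25.5%, interval 21.7 to 29.6), and the homeobox, Sox and forkhead factors, many of which belong to other tissues, were at 22 of 159 (13.8%). Among the immune lists, innate immune signalling and macrophage genes were at 31 of 76 (40.8%) and cytokines, chemokines and JAK-STAT at 32 of 170 (18.8%). The 26 genes of the sarcomere, contraction and calcium handling list with a peak made up 41.9% of its 62 genes.

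Ribosomal proteins and oxidative phosphorylation, which serve all cells, had low shares. Only 5 of 86 ribosomal protein genes (5.81%, interval 2.51 to 12.9) had a listed peak, namely Rpl3, Rpl10a, Rpl24, Rps24 and Rpl7l1. Of 87 genes of oxidative phosphorylation, 7 (8.05%, interval 3.95 to 15.7) had one, namely Atp5d, Cox15, Cox7a2l, Ndufab1, Ndufb7, Ndufb11 and Ndufv3. None of these 12 genes had a peak with a fold enrichment over 21.5. Other lists of common machinery lay above all genes, with 17 of 70 translation factors (24.3%), 16 of 51 glycolysis genes (31.4%) and 33 of 94 chaperones and heat shock proteins (35.1%). The lowest share was 0, since no peak is listed for any of the 1106 olfactory receptor genes, whose known site of expression is the nose. Solute carriers (15.8%) and receptor tyrosine kinases with growth factors (16.7%) lay at the level of all genes.

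**Figure D1:**
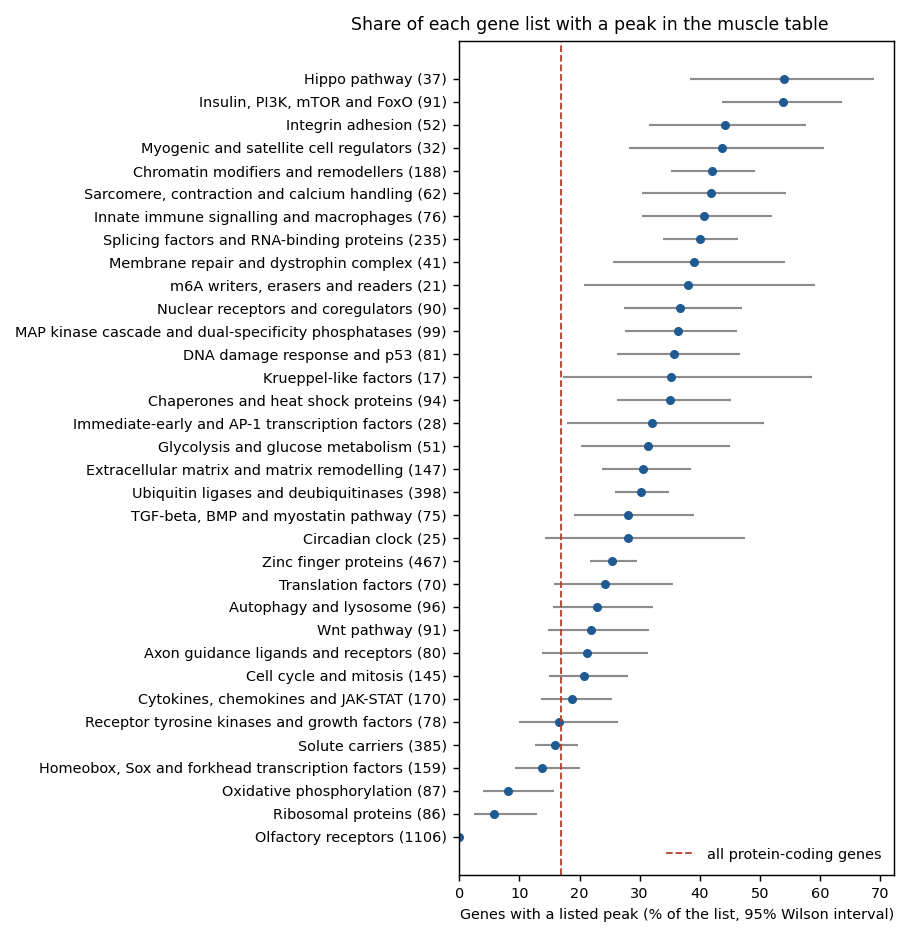
Share of the genes of each list that have a peak in the muscle table, in percent on the horizontal axis, for 34 gene lists with the number of genes in brackets. Points are shares, bars are 95% Wilson intervals, and the dashed line marks the 16.9% of all protein-coding genes. The Hippo and insulin lists stand highest at 54.1% and 53.8%, and ribosomal proteins and oxidative phosphorylation lie below the line.

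The class of the peaks differed between groups. Over all protein-coding genes, 50.4% of the peaks were in the 3′UTR, 33.4% in the CDS and 5.33% in the 5′UTR. The 3′UTR share was highest in the myogenic and satellite cell regulators, with 16 of 20 peaks (80.0%, interval 58.4 to 91.9). These included peaks of Pax7, the satellite cell transcription factor, of Myod1, and of Mef2a, Mef2c and Mef2d, which act with it in differentiation. Only Myog and Vgll2 had CDS peaks in that list, and Id1 and Mef2a had a 5′UTR peak beside 1 in the 3′UTR. Autophagy and lysosome genes (73.1% of 26 peaks, interval 53.9 to 86.3), integrin adhesion (70.0% of 40, interval 54.6 to 81.9) and the insulin list (67.6% of 68, interval 55.8 to 77.6) also had intervals above the 50.4% of all genes.

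Other lists had a high share of CDS peaks. Zinc finger proteins had 86 of 167 peaks in the CDS (51.5%, interval 44.0 to 59.0), chromatin modifiers 64 of 133 (48.1%, interval 39.8 to 56.5) and cell cycle genes 20 of 40 (50.0%, interval 35.2 to 64.8). The sarcomere list had the highest CDS share, 46 of 67 peaks (68.7%, interval 56.8 to 78.5), but 26 of these 46 belong to Ttn, the giant spring protein of the sarcomere, and the share was 50.0% without it. Among the peaks of the list at or over the median fold enrichment of the table, it was 12.5%. In the membrane repair and dystrophin complex list, 22 of 38 peaks (57.9%) were in the CDS, and 15 of these 22 lie in Ahnak, a giant scaffold protein of the membrane. Without Ahnak the share was 31.8%, below that of all genes. Solute carriers (19.3%) and glycolysis genes (9.52%) had few CDS peaks.

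**Figure D2:**
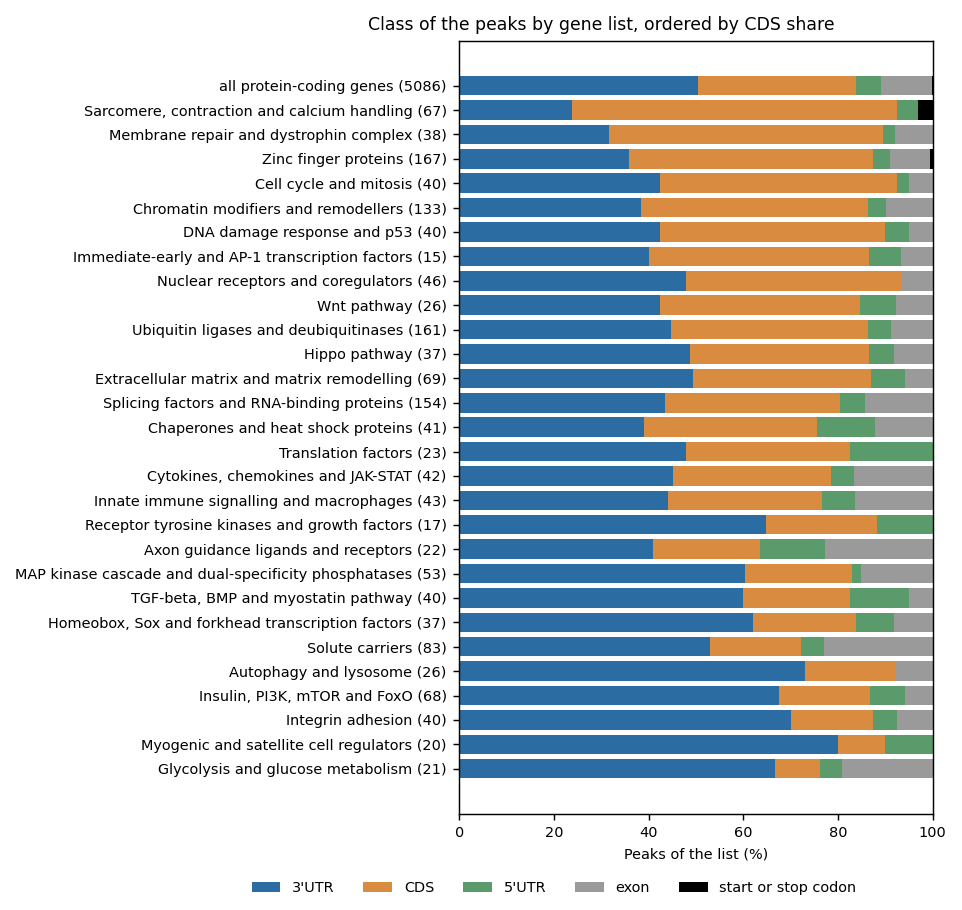
Class of the peaks in the 28 gene lists with 15 or more peaks and in all protein-coding genes, as stacked percentages of the peaks of each list, with the number of peaks in brackets. Lists are ordered by the CDS share, from 9.52% in glycolysis to 68.7% in the sarcomere list, in which Ttn holds 27 of the 67 peaks.

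Within a class, peak length stood clear of all genes in few lists. For CDS peaks the 95% interval of the median lay above all genes in 1 list and below in 1. For 3′UTR peaks it lay above in 1 list. In protein-coding genes the median length was 600.5 bp for a CDS peak and 300.0 bp for a 3′UTR peak. In zinc finger proteins the median CDS peak was 1020 bp long (95% interval of the median 810 to 1229), and 80.2% of these peaks lay in a single exon block, against 74.1% in all genes. Their 3′UTR peaks had a median of 256 bp, near that of all genes. Among 3′UTR peaks, only those of the axon guidance ligands and receptors had an interval clear of all genes, with 9 peaks and a median of 781 bp (interval 361 to 1169). The DNA-binding fingers of zinc finger proteins are usually coded in a single long exon, and exon lengths were not available to set beside the peaks. The longest peak of the zinc finger list was that of Zfp516, with 4792 bp over 7 blocks, 34 sites and a fold enrichment of 813. Zfp81 had the highest fold enrichment, 1460, over a CDS peak of 1526 bp in a single block (chr17:33334066-33335591) in which no site is listed.

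Immediate-early and AP-1 factors, which are induced within minutes of a stimulus, had a listed peak in 9 of 28 genes (32.1%). The 7 CDS peaks of this list had a median of 1919 bp, with an interval of 181 to 2708 that includes the 600.5 bp of all genes, and the 6 3′UTR peaks had a median of 300.5 bp, near that of all genes. The peak of Jun was 2563 bp long, that of Ier5 1966 bp, that of Fosl2 1919 bp, that of Junb 1809 bp and that of Jund 1638 bp. These 5 peaks had 9 to 16 sites and a fold enrichment of at least 91.4. Nr4a3, an orphan nuclear receptor, stood apart with a CDS peak of 181 bp, no site and a fold enrichment of 3.5. Jun, Junb, Jund and Ier2 are genes without introns, so their peaks have a single block.

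Sarcomere genes had short CDS peaks, with a median of 286 bp (interval 211 to 361), and 97.8% were in a single block, whereas their 16 3′UTR peaks had a median of 716 bp (interval 239 to 841, which includes the 300.0 bp of all genes). The 27 peaks of Ttn ranged from 151 to 1770 bp with a median of 301 bp, and none had a fold enrichment over 8.13. By contrast Xirp1, which binds actin in remodelling fibres, had a 3′UTR peak of 2516 bp with 18 sites and a fold enrichment of 118. Splicing factors and RNA-binding proteins had a CDS median of 420 bp (interval 297 to 749), which includes the value of all genes. Within that list Rbm15 reached 3473 bp with 26 sites. The longest peak of the table, 10796 bp with 52 sites over 3 blocks, lies in the CDS of Plec, a cytoskeletal linker in the membrane repair list (chr15:76170974-76182912). Its fold enrichment was 29.3, so length and fold enrichment did not always go together. Across the 5086 peaks of protein-coding genes, Spearman's rho between length and fold enrichment was 0.77, as a description over peaks that share the same 4 libraries.

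**Figure D3:**
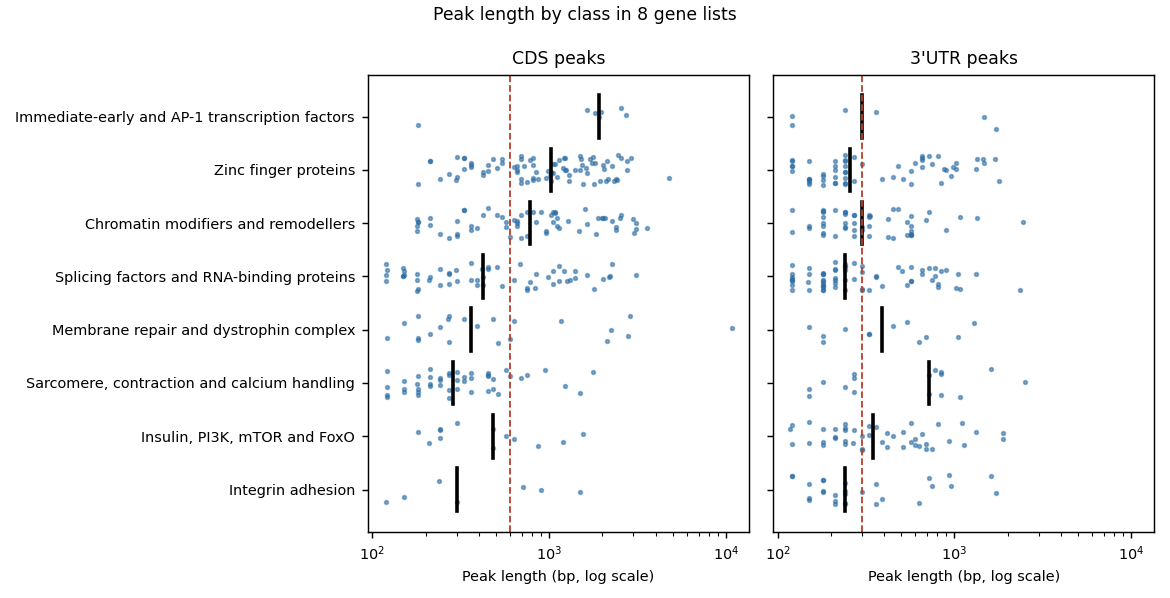
Length of each CDS peak (left) and 3′UTR peak (right) in 8 gene lists, in bp on a log axis. Each point is a peak, black bars are the medians of the lists, and dashed lines are the medians of all protein-coding genes. CDS peaks are longest in the immediate-early list (median 1919 bp) and shortest in the sarcomere list (286 bp).

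The number of listed sites grew with peak length, so groups were compared by sites per 1000 bp of peak. This density still rose with length, from 3.25 in the shortest of 4 equal bins of peaks by length to 4.98 in the longest, and with fold enrichment, from 3.69 in the lowest bin to 5.26 in the highest. Over protein-coding genes the density was 4.69 sites per 1000 bp, and 71.2% of the peaks had a site. By class it was 5.04 in CDS peaks, 5.13 in 5′UTR peaks and 4.12 in 3′UTR peaks of the whole table. Zinc finger proteins had 548 sites and a density of 3.70 (95% exact Poisson interval 3.40 to 4.03), below all genes although their peaks were long and mostly in the CDS. At the densities that each class had over all peaks, peaks of these lengths and classes would hold 711 sites, and the observed number was 0.771 of that. The share of their peaks with a site, 71.3%, was that of all genes. Nuclear receptors and coregulators (3.73, interval 3.03 to 4.55) and the TGF-beta, BMP and myostatin pathway (3.76, interval 2.97 to 4.68) were also low in density, with 73.9% and 75.0% of peaks holding a site.

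Site density was highest in the small list of m6A writers, erasers and readers, with 70 sites in 10 peaks (6.90, interval 5.38 to 8.72). Of these sites, 26 lie in the peak of Rbm15 and 25 in the longer peak of Rbm15b, and both encode adaptors that bring the methyltransferase complex to RNA. Axon guidance ligands and receptors had 103 sites in 22 peaks (6.19, interval 5.06 to 7.51), and 90.9% of their peaks held a site. Efnb2, an ephrin ligand, had 12 sites in a 3′UTR peak of 1169 bp, and Sema4c, a semaphorin, had 13 sites in a CDS peak of 1223 bp. Immediate-early and AP-1 factors had 5.95 sites per 1000 bp (interval 4.88 to 7.19), which includes the 4.98 of the longest peaks. At the other end, ribosomal proteins had 2.61 sites per 1000 bp (interval 0.712 to 6.69) and oxidative phosphorylation genes 2.71 (interval 0.879 to 6.31), both from few peaks and with intervals that include the value of all genes. By the share of peaks with a site, oxidative phosphorylation stood at 28.6% of 7 peaks, ribosomal proteins at 33.3% of 6, receptor tyrosine kinases with growth factors at 52.9% of 17 and integrin adhesion at 60.0%, although the density of the receptor tyrosine kinase list, 5.30, was above that of all genes. The peaks of these lists were also short, with medians of 179, 225, 300 and 240.5 bp in the same order.

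**Figure D4:**
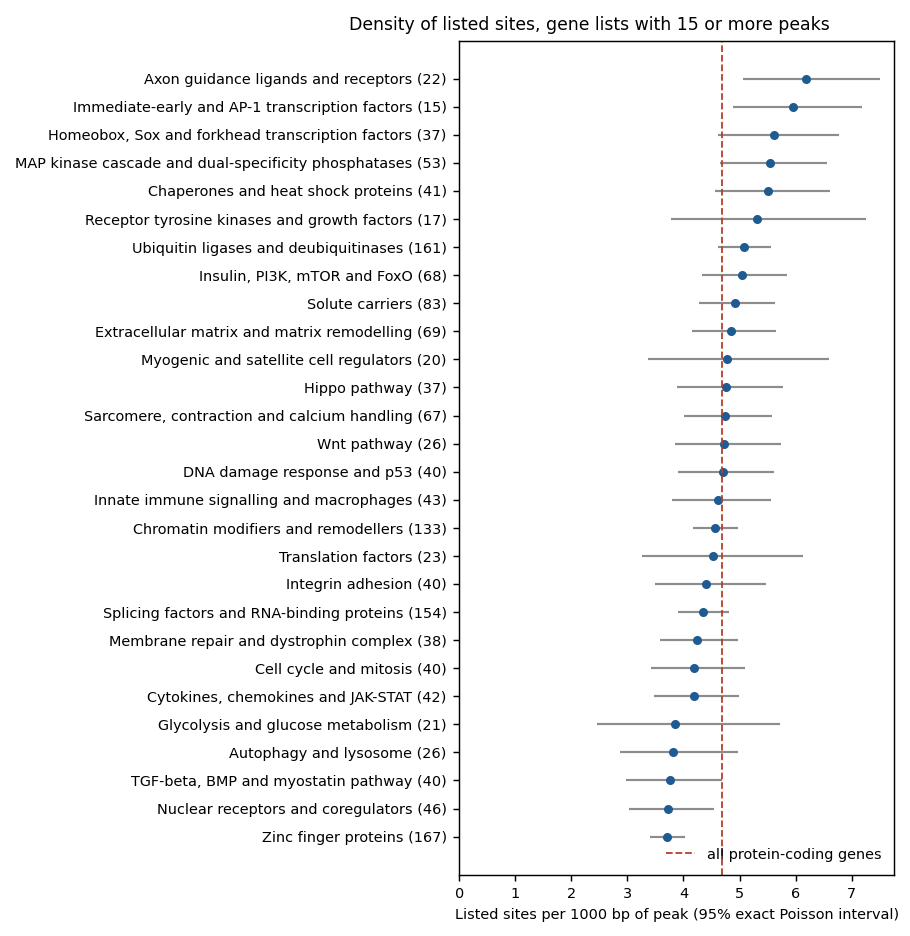
Listed sites per 1000 bp of peak on the horizontal axis for the 28 gene lists with 15 or more peaks, with the number of peaks in brackets. Points are densities, bars are 95% exact Poisson intervals, and the dashed line marks the 4.69 of all protein-coding genes. Axon guidance (6.19) lies above the line with its interval, and zinc finger proteins (3.70) below.

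The log2 fold was summarised with 1 peak per gene, that with the highest fold enrichment. In the deposited values, 1874 of the 3705 protein-coding genes (50.6%) had a log2 fold of -1 or lower and 1351 (36.5%) had 1 or higher, and genes past these limits are called negative and positive here. The sign went with peak length over the whole table. With the 5086 peaks cut into 4 equal bins by length, 93.5% had a value below 0 in the shortest bin, of up to 211 bp, and 21.1% in the longest, of 714 bp or more. From the lowest to the highest of 4 bins of fold enrichment the share below 0 went from 84.4% to 16.0%. Spearman's rho of the log2 fold was 0.61 with length and 0.51 with fold enrichment over the 5086 peaks. The sign counts of most groups are therefore given with the number of negative genes that the deciles of peak length of its genes would give. For some lists the number from the deciles of fold enrichment is given too. What ties length to sign was not tested. The sign also went with the class. Of the 1259 genes represented by a CDS peak, 31.7% were negative and 50.0% positive, and of the 1823 represented by a 3′UTR peak, 61.7% were negative and 28.4% positive. Zinc finger proteins showed the same split within 1 list, with 48 of 69 genes positive through a CDS peak and 25 of 33 negative through a 3′UTR peak. In chromatin modifiers the CDS side was lower, with 10 of 37 genes positive through a CDS peak and 23 of 30 negative through a 3′UTR peak.

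Among the lists with long, strong peaks, 2 are described here that held mostly positive genes. The median peak length per gene was 1809 bp in the immediate-early and AP-1 list and 931 bp in the zinc finger proteins, against 421 bp in all genes, with median fold enrichments of 105.0, 101.0 and 19.8. Of the 9 immediate-early and AP-1 genes with a peak, 7 (77.8%) were at 1 or higher and 1 was negative, where their lengths would give 1.40 negative genes. Of the positive genes, Jun stood at 1.41, Junb at 1.06, Fosl2 at 1.18, Ier2 at 1.04, Ier5 at 1.61 and Mafk, a small Maf protein, at 2.52. Jund was at -0.68 and the short peak of Nr4a3 at -4.68. Zinc finger proteins had 67 positive genes (56.3%) and 43 negative ones (36.1%), and lengths would give 36.6 negative. Their values ran from -8.22 for Zfp462 to 4.43 for Zfp60.

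Several lists with short peaks were mostly negative, and others were not. The median peak length per gene was 330 bp in sarcomere, 343 bp in cell cycle and 360 bp in innate immune genes. Of these genes 38.5%, 43.3% and 45.2% were negative. Among genes past either threshold, 58.1% of all were negative. The 95% Wilson interval of that share lay above 58.1% in 2 of 33 lists and below it in 2. It included 58.1% in the myogenic (52.4 to 92.4) and receptor tyrosine kinase (55.2 to 95.3) lists. The median peak length per gene was 345 bp in the myogenic list, 390 bp in integrin adhesion and 301 bp in the receptor tyrosine kinase list, with fold enrichments of 11.5, 9.3 and 9.3. Of the 14 myogenic and satellite cell regulators, 11 (78.6%) were negative and 3 positive, where length would give 8.32 negative genes. Hgf, the growth factor that activates satellite cells, was lowest at -8.03, and Mef2a (-6.97), Mef2c (-6.03) and Mef2d (-1.74) were all negative. The positive genes were Id3, an inhibitor of the myogenic factors, at 1.69, and the E proteins Tcf12 at 1.09 and Tcf4 at 1.02, which pair with the myogenic factors. Integrin adhesion had 16 of 23 genes negative (69.6%) and 4 positive, where length would give 12.3 negative. Lpp was at -9.36, Vcl at -8.69 and Fermt2 at -8.16, whereas Itga1 was at 2.32, Itgb5 at 1.53 and Tns1 at 1.36. The receptor tyrosine kinase and growth factor list had 10 of 13 genes negative (76.9%), where 7.59 would follow from length, and only Pdgfra (2.15), a marker of fibro-adipogenic progenitors, and Fgfr1 (1.78) were positive. All 5 ribosomal protein genes with a peak were negative, from -9.63 for Rpl10a to -3.64 for Rpl7l1, and length would give 4.13. The deciles of fold enrichment would give 9.23 negative genes in the myogenic list and 14.2 in integrin adhesion. They would give 7.83 in the receptor tyrosine kinase list and 3.78 in ribosomal proteins.

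Chromatin modifiers had 43 of 79 genes negative (54.4%) and 20 positive (25.3%), with a median peak length per gene of 571 bp. Length would give 33.1 negative genes and fold enrichment 36.0. Pcgf3, a Polycomb protein, was lowest at -10.30 and Ncor1, a corepressor, highest at 3.57. Splicing factors and RNA-binding proteins had 54 of 94 genes negative (57.4%) and 23 positive (24.5%), against 50.8 negative from length. Srsf5 was lowest in that list at -12.10, over a peak of 211 bp with a fold enrichment of 3.27. Sarcomere genes had 10 of 26 negative (38.5%), where length would give 13.7, and 12 of 26 lay between the thresholds. The insulin list was mixed, with 27 of 49 genes negative (55.1%) and 19 positive (38.8%), near the 50.6% and 36.5% of all genes, and length would give 23.6 negative and 19.1 positive. The receptors Igf1r (4.45) and Insr (1.48) and the mTOR subunit Mlst8 (4.83) were positive, and Pik3ca (-9.50), the mTOR inhibitor Deptor (-9.12), Igf1 (-8.38) and Irs1 (-4.77) were negative. In the Hippo list, 12 of 20 genes were negative and 7 positive, where length would give 10.5 and 6.93. The cadherins Fat1, Fat4, Dchs1 and Dchs2 stood between 1.94 and 3.69, and Frmd6, Taok1 and Tead1 between -7.76 and -6.59.

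Other lists held single genes that stood out. In the extracellular matrix list, 20 of 45 genes were negative (44.4%) and 16 positive (35.6%), where length would give 21.7 and 17.6. The matrix proteases Adamts15 (2.71, with 13 sites in a 3′UTR peak of 1498 bp) and Mmp19 (2.09) were positive. The collagen cross-linking enzymes Lox (-8.67) and Loxl1 (-7.09) were negative. The Lox peak was 121 bp long with no site and a fold enrichment of 3.11, against 252 for Adamts15. The innate immune list had 14 of 31 genes negative and 10 positive, where length would give 16.4 and 10.5. It held a fold enrichment of 1230 for Cebpb, a macrophage and neutrophil transcription factor, whose log2 fold was 0.18. Of the Toll-like receptors in it, Tlr6 (1.42), Tlr7 (1.04) and Tlr13 (1.71) were positive through CDS peaks of over 1000 bp, and Tlr1 (-1.91) and Tlr4 (-5.02) were negative. Among cytokines and their receptors, Il21r had a fold enrichment of 1240 and a log2 fold of 1.81, Socs3, a feedback inhibitor of JAK signalling, stood at 1.67 with 12 sites, and Il33, an alarmin, at -11.20.

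In the cell cycle list 14 of 30 genes were positive (46.7%) and 13 negative (43.3%), where length would give 9.52 positive and 17.0 negative. Of its 14 genes represented by a CDS peak, 9 were positive, against 50.0% of all genes with such a peak, among them the mitotic proteins Kif20b (4.69), Aspm (3.91), Incenp (3.51) and Kif14 (3.28). Of its 13 genes represented by a 3′UTR peak, 9 were negative, against 61.7% of all such genes, among them Cdk6 (-11.40), Ccna2 (-8.79) and Rb1 (-7.38). The DNA damage response list lay near the count from length, with 12 of 29 genes negative against 12.3, and with 9 of 16 genes positive through a CDS peak, against the 50.0% above. The positive genes included the kinase Atm (4.84), the helicase Blm (3.14), Bard1 (2.75) and Brca1 (2.66), whereas Brca2 was negative (-4.44) through a CDS peak of 181 bp. Atm also had a shorter, weaker 3′UTR peak at -7.49. Of the 10 genes with a 3′UTR peak in that list, 6 were negative and 4 positive. Of the 20 Wnt genes with a peak, 9 were negative and 8 positive, where length would give 9.61 and 7.30. In this list the receptors Fzd1, Fzd7 and Ror2 had CDS peaks of 1942 to 2758 bp with 11 to 17 sites. Their values were 1.50, 1.67 and 2.54, and the coreceptor Lrp6 was at -8.71. The TGF-beta, BMP and myostatin list had 11 of 21 genes negative and 8 positive, where length would give 8.85 and 9.09. Its receptors Acvr1 (-7.13), Acvr2a (-7.28) and Tgfbr2 (-4.30) were negative, and Bmpr1a (2.60) and Bmpr2 (1.30 by its strongest peak) were positive. The signal transducers Smad3 (1.53) and Smad4 (3.03) were positive.

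Genes with several peaks could hold both signs. Of 958 protein-coding genes with 2 or more peaks, 341 (35.6%) had a peak at 1 or higher and another at -1 or lower. Bmpr2, a receptor for bone morphogenetic proteins, had 9 peaks, of which 8 were below 0, down to -10.60, and only its strongest peak, in the CDS with a fold enrichment of 652, was above 0, at 1.30. Fosl2 had 6 peaks from -8.99 to 1.18, and Rpl7l1 had 3′UTR peaks at -3.64 and 4.18. Zbtb20, a zinc finger repressor, had 13 peaks, 12 of them in the 3′UTR and 11 below 0. By contrast 26 of the 27 Ttn peaks were above 0, with a median of 0.68 and none past 1.30, and all 6 peaks of Srrm2, a splicing scaffold, were below 0. The choice of peak thus decides the sign given to such a gene.

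The genes of the m6A pathway itself were mixed. Of its 21 genes, 8 had a listed peak (38.1%, interval 20.8 to 59.1, against 16.9% of all genes). Of these, 3 were negative and 4 positive, where length would give 3.75 and 3.02. Among the writers, Rbm15 was at 2.38, Rbm15b at 0.63 and Wtap, which anchors the complex, at 1.40. Of the erasers, Fto was at 1.17 and Alkbh5, with a 3′UTR peak of 121 bp, at -7.23. Of the readers, Ythdc1, which acts in the nucleus, was at 3.10, Igf2bp2 at -3.07 and Hnrnpc at -5.90.

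In C2C12, a mouse myoblast line, peaks are listed without values and on another build, so genes were compared by name only. Of the 3705 muscle genes, 1602 (43.2%) are also in the C2C12 list, which is 41.4% of its protein-coding genes. The share was 66.7% of 45 genes for the extracellular matrix list and 62.1% of 29 genes for the DNA damage response, and it was 22.6% of 31 genes for innate immune signalling and macrophages. Sarcomere genes (19.2% of 26) and glycolysis genes (18.8% of 16) were also seldom shared. The C2C12 libraries differ from muscle in cell type and processing, which cannot be told apart here.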

How the data were processed

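m6A MeRIP-Seq libraries from muscle at day 2 after CTX were analysed, 1 IP and 1 input library each from METTL3 cKO and CTL mice, grouped by their labels. Per the labels, reads were processed with TopHat and MACS2 on mm10, whereas the column names of the muscle table are those of the R package exomePeak. The authors deposited 1 table of differential peaks with a fold enrichment, a ratio of IP over input, and a log2 fold between the genotypes whose numerator is not stated. Both were used as deposited. The p-values and FDR values of the authors were not used. No read counts were used, so depth is unknown. The tables have 0 columns of per-library values that went unused.

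Peak length was the sum of the exon blocks. Genes were matched to RefSeq symbols of GRCm38 (3811 of 3983 matched), and 9 symbols that a spreadsheet had turned into dates were left as listed. Of the entries in the gene lists, 1 named no gene. A further list and some single genes are not reported here. The functional groups, the members and the measures were chosen with earlier results of these data known. In each list the genes with the highest fold enrichment, the longest peak, the most sites and the lowest and highest log2 fold were open to naming, leaving out Notch components. Other members were named by their role after their values were seen. Shares have 95% Wilson intervals, densities exact Poisson intervals and medians binomial order-statistic intervals. Expected negative genes came from 10 deciles of peak length, and in some lists also of fold enrichment, over all protein-coding genes. The summaries were tested on simulated data. Python 3.11.15, pandas 2.3.3, numpy 2.4.6, scipy 1.17.1 and matplotlib 3.10.9 were used. Sequences are from RefSeq promoter windows on GRCm38.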

Additional observations from a re-analysis of the deposited data

How the results depend on the processing

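Across 34 comparisons of a list with all protein-coding genes and 142 alternatives, the list kept its side of all genes in 133 and changed it in 9. Restricting the table to peaks with a fold enrichment of at least its median, 12.9, moved most values. The share of genes with a peak became 29.7% for the insulin list, 21.6% for Hippo, 0.0% for ribosomal proteins and 1.15% for oxidative phosphorylation, against 10.1% of all genes. The CDS share became 61.2% for zinc finger proteins and 57.1% for chromatin modifiers, against 41.9%, and fell to 12.5% in the sarcomere list, below all genes. The 3′UTR share of integrin adhesion became 54.5%, against 43.0%. Among genes past a log2 fold of 1 in either direction, the negative share with these peaks was 29.2% for zinc finger proteins, 0.0% for immediate-early factors, 57.1% for integrin adhesion, 50.0% for receptor tyrosine kinases and 42.1% for splicing factors, which turned from mostly negative to mostly positive, against 38.0% of all genes.

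At a change of at least 2 on the log2 scale, that share was 70.7% over all genes and 50.7% for zinc finger proteins, previously 39.1%. It was 50.0% for immediate-early factors, from only Mafk and Nr4a3, and 100.0% for myogenic regulators. It was 92.9% for integrin adhesion, 82.7% for splicing factors and 86.8% for chromatin modifiers. With the table's median log2 fold, -1.63, subtracted, it was 27.9% for zinc finger proteins, 52.7% for splicing factors and 47.8% for chromatin modifiers, against 43.3% of all genes, which the same shift had moved from 58.1%. Chromatin modifiers crossed to mostly positive through that shift and stayed above all genes. Counting every peak gave 49.3% for zinc finger proteins, against 64.1% of all genes. It gave 42.9% for immediate-early factors, which had been 12.5%. For chromatin modifiers, whose share was 68.3%, the deciles of fold enrichment would give 52.6% and those of length 50.3%. With 1 peak per gene the CDS share was 38.5% in the sarcomere list and 37.5% in the membrane repair list. Without the gene with the most peaks it was 50.0% (Ttn) and 31.8% (Ahnak). In peaks of a single exon block, zinc finger proteins had 3.30 sites per 1000 bp. By the share of peaks with a site, in place of the density, zinc finger proteins (71.3%), nuclear receptors (73.9%) and the TGF-beta list (75.0%) lay above all genes (71.2%). With all gene entries in place of protein-coding genes, 7.61% had a peak, and oxidative phosphorylation at 7.96% lay above that. The cause of these changes was not tested. The deciles and the lists without a gene were chosen after seeing the data. Unknown depth and single libraries limit all comparisons. No paired analysis was possible because the table holds no values per library.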
